A study of Mus musculus with 4 samples.

Results

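The tumour suppressor p53 and the BCL2 protein family together set how a cell answers damage and whether it enters apoptosis through its mitochondria. These data follow 36 mouse genes of that system, taken by symbol from a fixed list: p53 with its inhibitors, genes that p53 is known to induce, the BCL2 family, and the apoptosome that BCL2 proteins hold in check. All 36 were among the 32681 genes of the deposited table, and all 36 passed the filter on low reads that left 18110 genes for testing. The libraries came from primary neuron cultures of wild-type CD-1 mouse neocortex at embryonic day 13, 2 cultures given a control shRNA (short hairpin RNA, used for knockdown) and 2 given DcpS shRNA by transfection; DcpS hydrolyses the cap that remains when an mRNA has been degraded. Both groups share the strain, the stage and the culture medium (Neurobasal with B27 supplement), and the design text gives the purpose as finding genes downstream of DcpS. The titles of both DcpS shRNA libraries carry the same hairpin name, so loss of DcpS and other effects of that hairpin cannot be told apart. The labels give neither the hairpin sequence nor the share of cells transfected, and separate litters are not named. The p-values below therefore reflect how far these samples spread, a spread that may be technical only.

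In background, p53 is kept low by MDM2 and MDM4, and when freed it switches on genes for cell cycle arrest, repair, metabolic restraint and death. The death arm runs through the BH3-only proteins, which bind the anti-apoptotic BCL2 proteins or activate the effectors BAX and BAK1 directly. The effectors open the outer mitochondrial membrane, cytochrome c leaves, and APAF1 with caspase-9 starts the caspase cascade. Postmitotic neurons depend on the BH3-only protein HRK (also called DP5) and on p53 for several kinds of developmental and induced death, and progenitors of the embryonic cortex are sensitive to p53 activity.

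Libraries held 17754768 to 21793685 reads. The values are read counts divided by a size factor per library, called normalised read counts here. Dcps itself checked the labels, with normalised read counts of 499.8 and 506.6 in control cultures against 114.5 and 119.6 under DcpS shRNA, a log2 fold change of −2.10 (SE 0.11; limma, Benjamini-Hochberg adjusted p 1.52e-08). Neuronal markers were abundant in every library, summed over 8 genes such as Tubb3 and Map2. Their sum was 98651 and 96746 normalised reads in control cultures against 93887 and 93084 under DcpS shRNA, lower in both. The sum over 10 markers of dividing cells was 26621 to 28913. Markers of meningeal fibroblasts were fewer with DcpS shRNA: all 8 were called lower, and their sum was 11442 and 12581 in control cultures against 6932 and 6730 under DcpS shRNA. None of the 8 lists held a marker at 0 in every library. Of 6 tested endothelial and mural markers, 3 were called lower (Kdr, Pdgfrb and Acta2), with 1 log2 fold change above 0 and 5 below. The 1 above 0 was the endothelial marker Pecam1 (0.93, not called). The sum over all 8 was 712 and 792 in control cultures against 445 and 419 under DcpS shRNA. It was carried mostly by Pdgfrb, at 506 and 534 against 329 and 304. Of 8 astrocyte and radial glia markers, 3 were called lower, with 3 log2 fold changes above 0 and 5 below. The 3 were Gja1 (log2 fold change −0.67), Aqp4 (−1.13) and Gfap (−0.91). The sum over the 8, carried mostly by Fabp7 (0.0023), was 12323 to 13008 in control cultures against 11774 to 12439 under DcpS shRNA. The neuronal list gave 1 higher and 1 lower call, with 2 log2 fold changes above 0 and 6 below. The remaining lists gave 1 higher call each, among 6 intermediate progenitor, 7 tested microglia and 5 tested oligodendrocyte-lineage markers. The microglia list had 4 log2 fold changes above 0 and 3 below. In the oligodendrocyte-lineage list the called gene, Mbp (0.47), was the only 1 above 0, with 4 below. The 10 markers of dividing cells gave 0 calls by limma, edgeR and DESeq2, with 1 at an unadjusted p under 0.05 (limma). In bulk RNA fewer cells of a type and less RNA per cell cannot be told apart, and the part of these shifts in the results below was not tested.

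Of the 36 members, 5 were called higher and 1 lower under DcpS shRNA at an adjusted p under 0.05 (limma, Benjamini-Hochberg). The higher members were Btg2, Plk3, Sesn1, Zmat3 and Hrk, and the lower member was Bad. Calls covered 16.7% of members, beside 5.79% of all tested genes. By direction, 2.14% of all tested genes were called higher and 3.65% lower. These shares belong beside the calls of every list and role in this report. An unadjusted p under 0.05 (limma) was reached by 11 members and by 18.7% of all tested genes. That share is the one to set beside such counts for any list here. On the recovered reads, edgeR called the same number of members, 6, and 1077 of all genes (5.95%), and DESeq2 called 3 members and 448 genes (2.47%). The members were chosen with earlier results of these data known, so this share is a description. The 6 changes were small, from 1.15-fold for Sesn1 to 1.51-fold for Plk3 on the log2(value + 1) scale. The median log2 fold change over the 36 members was 0.00079, beside 0.00074 over all tested genes, with 18 members above 0 and 18 below. The 2 groups of libraries did not overlap for 16 members (44.4%), beside 48.4% of all tested genes, a share near that background. By direction, 10 members were wholly higher and 6 wholly lower, beside 24.4% and 24% of all genes. The calls of Btg2, Plk3 and Bad held in all 13 alternatives, while Hrk held in 11, Zmat3 in 10 and Sesn1 in 6.

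**Figure D1:**
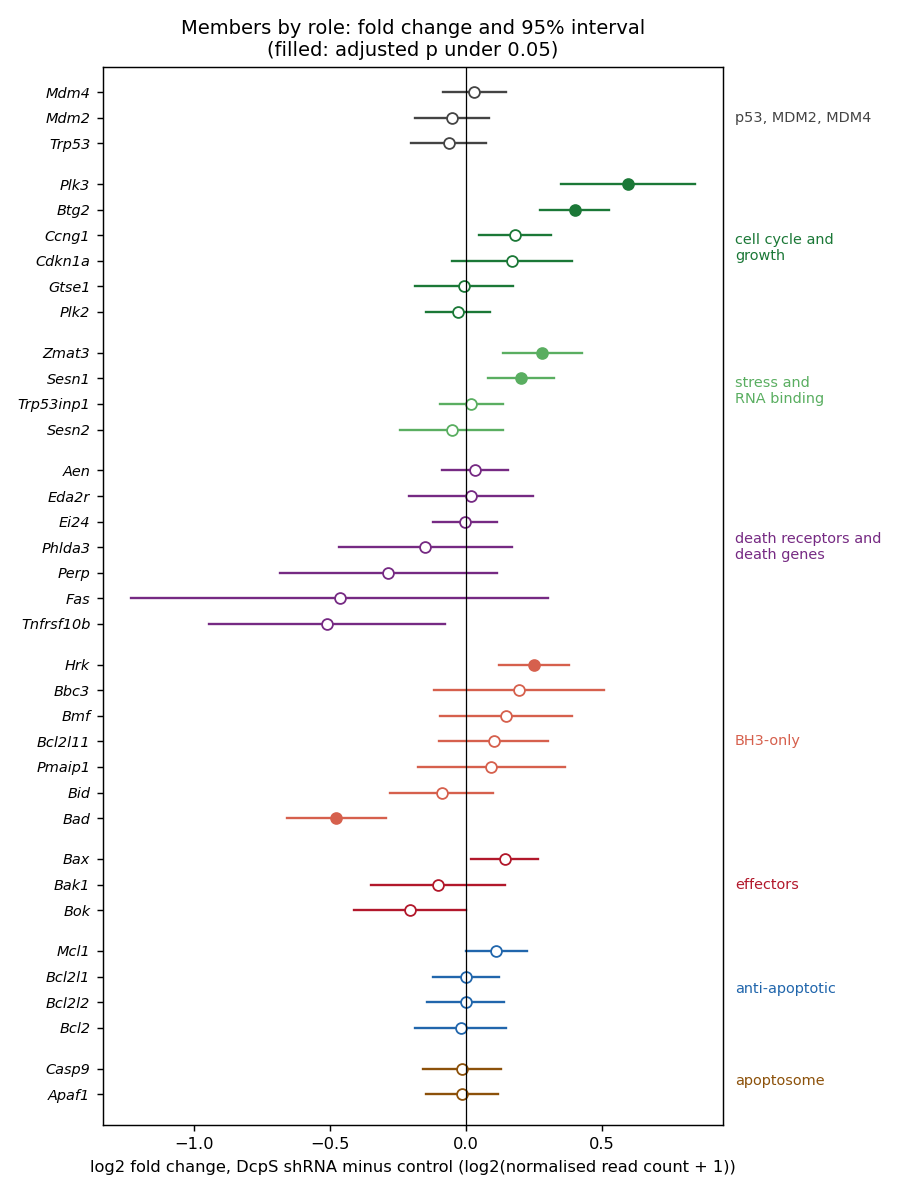
Log2 fold change (x axis, DcpS shRNA minus control, on log2(normalised read count + 1)) of the 36 members grouped by role, with limma's 95% interval as a line; filled points passed an adjusted p of 0.05. The 5 higher calls lie in the cell cycle, stress and BH3-only groups, the lower call is Bad, and the p53, anti-apoptotic and apoptosome groups sit near 0.

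Promoter sequences were searched for letters that p53 and stimulus-response factors are known to bind. Of the 36 members, 20 form the group of p53, its inhibitors and p53-responsive genes. The members are not grouped by the stimulus-response factors. RefSeq promoters (GRCm38.p6, 250 bases before to 50 after the annotated start) were matched for 31 of the 36 members. The p53 response element, searched as a pair of its decamers up to 13 bases apart with at most 1 mismatch, was found in 3 of 31 members and in 0.596% of 11741 tested genes with a promoter entry. With at most 2 mismatches it was found in 5 of 31 members and in 4.49% of those genes. The matches are shown because they are the members for which p53 letters lie close to a start, with capitals marking the matched pair and the bases between.
Cdkn1a, chr17:29090906-29090937, plus strand: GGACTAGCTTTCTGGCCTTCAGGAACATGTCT
Ccng1, chr11:40755457-40755486, minus strand: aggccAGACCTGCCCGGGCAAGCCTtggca
Gtse1, chr15:85859940-85859969, plus strand: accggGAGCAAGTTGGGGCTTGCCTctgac
Sesn1, chr10:41887250-41887278, plus strand: tggGCGCTTGGCCTTCAAGCTTGTTTttg
Bax, chr7:45467088-45467116, minus strand: gaTGACAAGCATATCCCAGGCAAGCTTtg

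The element had 0 mismatches in Cdkn1a, 1 in Ccng1 and Gtse1, and 2 in Sesn1 and Bax. Of these 5 genes Sesn1 was called. Sesn1, Ccng1 and Bax were higher in both DcpS shRNA libraries than in both controls, as were 24.4% of all tested genes, and Cdkn1a and Gtse1 overlapped; with 5 genes nothing is read from these counts. Many p53 elements of these genes are known to lie in introns or farther upstream, outside this window.

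The cyclic AMP response element TGACGTCA, searched on both strands, was present in the promoters of 2 of 31 members and in 3.45% of tested genes. It is shown, in capitals, because 1 of the 2 is Btg2, the member with the smallest adjusted p, and the other is Plk2, a gene that did not pass.
Btg2, chr1:134079309-134079326, minus strand: aataaTGACGTCAgtgag
Plk2, chr13:110394977-110394994, plus strand: cgccgTGACGTCAcgagg

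Of these 2 genes Btg2 was called higher and Plk2 had a log2 fold change of −0.03. With 2 genes nothing is read from these matches. The serum response factor's CArG box was in 0 of 31 member promoters and in 1.61% of those of tested genes. A match is a description of letters, and the absence of one says nothing about the factor.

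p53 itself and its 2 inhibitors gave no call. Trp53, which encodes p53, had a normalised read count of 1859 and 1644 in control cultures against 1736 and 1616 under DcpS shRNA, so the groups overlapped. Its log2 fold change was −0.06 (SE 0.07, 95% interval −0.20 to 0.08), an interval that leaves room for a fall of up to 0.20. Mdm2, the ubiquitin ligase that degrades p53 and is itself a p53 target, read 1584 and 1461 in control cultures against 1396 and 1544 under DcpS shRNA. The change of Mdm2 was −0.05 (95% interval −0.19 to 0.09). Mdm4, the related inhibitor that covers p53's activation domain, changed by 0.03 (95% interval −0.08 to 0.15). All 3 were well counted, at 1382 or more reads in every library, so for these genes changes of more than about 0.2 in either direction lay outside the intervals.

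Among the 6 cell cycle and growth genes, 2 rose, beside 2.14% of all tested genes called higher, and 4 did not pass. Btg2, an antiproliferative gene induced by p53 and also a marker of neurogenic progenitor division, read 977 and 1012 in control cultures against 1324 and 1302 under DcpS shRNA. Both DcpS shRNA libraries lay above both controls. With 2 libraries per group the gap between replicates is a poor measure of spread, here and for the genes below. Its mean rose from 994 ± 25.0 to 1313 ± 15.5 (SD, n = 2 per group), a log2 fold change of 0.40 (SE 0.06; limma, Benjamini-Hochberg adjusted p 0.000567). Btg2 lies on chromosome 1, 134075170 to 134079120, minus strand (GRCm38, GENCODE M21). Alongside, the intermediate progenitor marker Neurod4 was also higher (0.67, SE 0.15; limma, Benjamini-Hochberg adjusted p 0.0147), and Eomes, the defining factor of those cells, changed by 0.05 (SE 0.06). The 6 such markers had a median log2 fold change of 0.13, with 5 above 0 and 1 below, and none was at 0 in any library. Of them 3 were at an unadjusted p under 0.05 (limma), beside 18.7% of all tested genes. Neurog1 (0.69, adjusted p 0.163), Gadd45g (0.20, adjusted p 0.257) and Neurog2 (−0.19, adjusted p 0.272) did not pass (limma, Benjamini-Hochberg). Their sum, carried mostly by Eomes and Insm1, was 8056 and 7286 in control cultures against 8050 and 7697 under DcpS shRNA. The part of these cells in the rise of Btg2 was not tested.

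Plk3, a polo-like stress kinase, had the largest fold change of the members called. It read 230 and 186 in control cultures against 316 and 310 under DcpS shRNA, and the controls lay farther apart than the DcpS shRNA libraries. The mean rose from 208 ± 31.3 to 313 ± 4.69 (SD, n = 2 per group), a log2 fold change of 0.60 (SE 0.12; limma, Benjamini-Hochberg adjusted p 0.00496). Without control 1 the log2 fold change was 0.75 and without control 2 it was 0.44, both still called. Plk3 lies on chromosome 4, 117128655 to 117133963, minus strand. Its relative Plk2, a p53-responsive kinase of synaptic homeostasis, read 1684 and 1639 in control cultures against 1598 and 1663 under DcpS shRNA, so the groups overlapped.

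Cdkn1a encodes p21, the best known p53 target and an inhibitor of cyclin-dependent kinases. Its normalised read counts were 417 and 521 in control cultures against 489 and 564 under DcpS shRNA. The library numbered 2 was higher than the library numbered 1 in each group, and the groups overlapped. The log2 fold change was 0.17 (SE 0.10, 95% interval −0.05 to 0.39; limma, Benjamini-Hochberg adjusted p 0.410), so a rise of the size seen for Zmat3 lay inside the interval of Cdkn1a. The value rested on single libraries, at 0.012 without control 1 and 0.33 without control 2. Ccng1, cyclin G1, a p53 target, read 1508 and 1520 in control cultures against 1618 and 1823 under DcpS shRNA. Its groups did not overlap, but its log2 fold change of 0.18 (SE 0.06) did not pass (adjusted p 0.113). It passed without DcpS shRNA 1 (limma, Benjamini-Hochberg adjusted p 0.00138) and with the replicate number as a block (0.0444). Its log2 fold change was 0.27 without DcpS shRNA 1 and 0.10 without DcpS shRNA 2 (adjusted p 0.467). Gtse1, a p53-restraining gene made in G2 and M phase, changed by −0.006 (95% interval −0.19 to 0.17), and the dividing-cell markers around it had a median log2 fold change of 0.01.

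**Figure D2:**
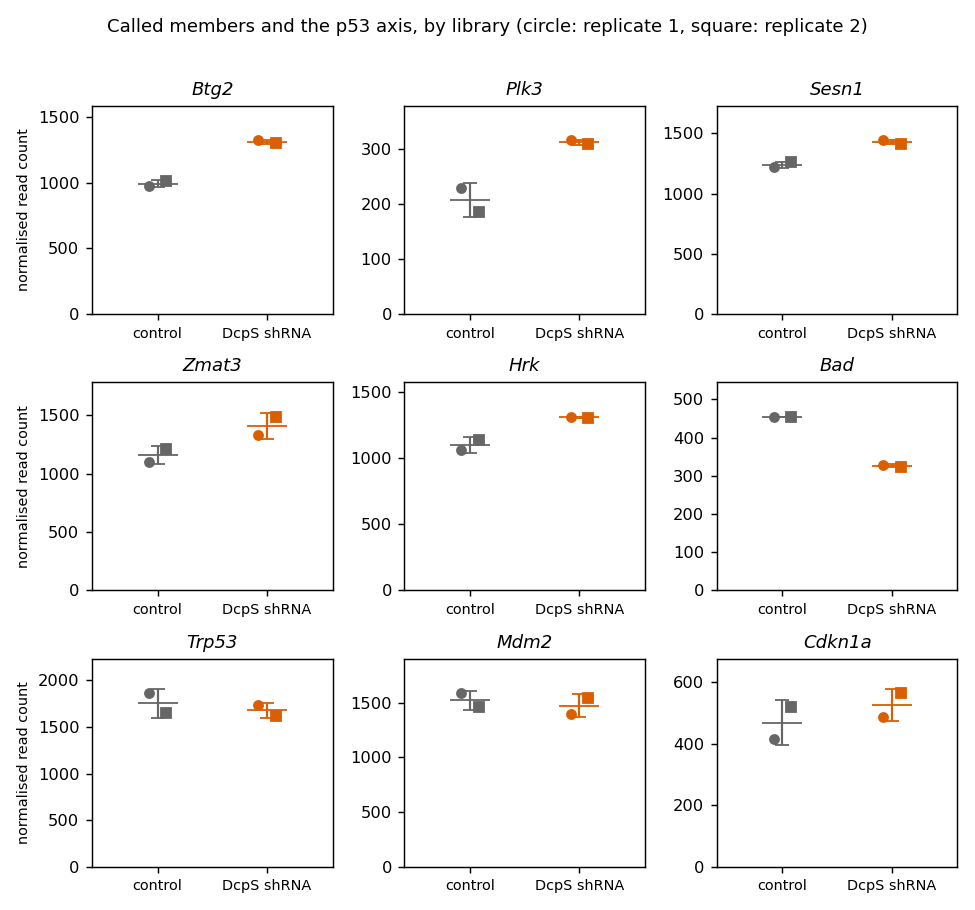
Normalised read count (y axes, each from 0) of the 6 called members and of Trp53, Mdm2 and Cdkn1a in each library; circles are replicate 1, squares replicate 2, and bars give the group mean with its SD (n = 2). The 2 groups are apart for Btg2, Plk3, Sesn1, Zmat3, Hrk and Bad and overlap for Trp53, Mdm2 and Cdkn1a.

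Among the 4 stress, autophagy and RNA-binding genes, 2 were called higher, beside 2.14% of all tested genes. Zmat3, a zinc finger protein that binds RNA and acts downstream of p53, read 1102 and 1211 in control cultures against 1328 and 1487 under DcpS shRNA. The DcpS shRNA libraries were both above the controls, with a spread inside each group of about the size of the gap between them. The log2 fold change was 0.28 (SE 0.07; limma, Benjamini-Hochberg adjusted p 0.0215). The call was lost when control 1 was left out (limma, Benjamini-Hochberg adjusted p 0.177), without DcpS shRNA 2 (0.0658) and under DESeq2 (0.0946), while the log2 fold change stayed between 0.20 and 0.36 over the alternatives. Zmat3 lies on chromosome 3, 32334792 to 32366014, minus strand.

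Sesn1, a sestrin that restrains mTORC1 signalling, read 1222 and 1258 in control cultures against 1441 and 1415 under DcpS shRNA. Replicates lay close together and the groups apart, but the rise was the smallest of the called members, 0.20 (SE 0.06; limma, Benjamini-Hochberg adjusted p 0.0479). The call ended with DESeq2 (adjusted p 0.278), without an expression filter (0.0654), with TMM scaling (0.0512) and library-total scaling (0.0505), and without control 1 (0.302), control 2 (0.156) or DcpS shRNA 1 (0.0615). Its paralog Sesn2 read 449 and 470 in control cultures against 412 and 476 under DcpS shRNA, which overlap. Trp53inp1, a p53-induced gene of autophagy and death, changed by 0.02 (95% interval −0.09 to 0.14).

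None of the 7 death receptors and related p53-responsive genes was called by limma (1 at an unadjusted p under 0.05), and edgeR and DESeq2 called 0. In 4 of them both DcpS shRNA libraries lay below both controls, namely Fas, Tnfrsf10b, Perp and Phlda3, beside 24% of all tested genes that were wholly lower. The first 3 were the least abundant of the 36 per kilobase of exon. Tnfrsf10b, the mouse TRAIL receptor, read 76.0 and 86.1 in control cultures against 68.1 and 46.9 under DcpS shRNA. Its log2 fold change was −0.51 (95% interval −0.94 to −0.08; limma, Benjamini-Hochberg adjusted p 0.184). Without DcpS shRNA 1 it was −0.77 and passed (0.0212), and without DcpS shRNA 2 it was −0.24 (0.640).

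Fas, the receptor of Fas ligand, had only 12 to 19 reads in a library. Its normalised counts were 18.1 and 17.4 in control cultures against 10.9 and 14.5 under DcpS shRNA, and the 95% interval of the log2 fold change of −0.46 ran from −1.23 to 0.30. At this depth the interval included both 0 and a fall of more than 1 on the log2 scale. Perp, a p53-induced membrane protein of desmosomes, read 69.4 and 89.2 in control cultures against 60.9 and 68.2 under DcpS shRNA (log2 fold change −0.28, 95% interval −0.68 to 0.12). Phlda3, which competes with AKT for membrane lipids, changed by −0.15 (95% interval −0.47 to 0.17). Fas, Tnfrsf10b and Perp are known to be made by many non-neuronal cells, and the fibroblast and mural markers given above fell in the same libraries. The part of those cells was not tested. The remaining 3 were Aen, an exonuclease of apoptotic DNA breakdown (0.03), Eda2r, an ectodysplasin receptor (0.02), and Ei24, a membrane protein of the endoplasmic reticulum (−0.0012). Each of these had overlapping groups and an interval within 0.25 of 0.

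The 7 BH3-only genes split. Hrk rose, Bad fell, and the other 5 did not pass, beside 2.14% of all tested genes called higher and 3.65% lower. Hrk, the BH3-only gene that neurons induce when they lose trophic support, read 1060.4 and 1142 in control cultures against 1315 and 1307 under DcpS shRNA. The 2 DcpS shRNA libraries nearly coincided and lay above both controls. Its log2 fold change was 0.25 (SE 0.06; limma, Benjamini-Hochberg adjusted p 0.0215). The call was lost when control 1 was left out (limma, Benjamini-Hochberg adjusted p 0.242) and under DESeq2 (0.137). Hrk lies on chromosome 5, 118164648 to 118189478, plus strand.

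Bad encodes a BH3-only protein that survival kinases phosphorylate and hold inactive. It read 454 and 453 in control cultures against 329 and 323 under DcpS shRNA, with replicates close together in both groups. The mean went from 454 ± 0.634 to 326 ± 4.20 (SD, n = 2 per group), a log2 fold change of −0.48 (SE 0.09; limma, Benjamini-Hochberg adjusted p 0.00291). The value ran from −0.49 to −0.46 over the 13 alternatives. Bad lies on chromosome 19, 6941861 to 6951899, plus strand, and 20.5% of its annotated exon bases overlap exons of Gpr137 on the opposite strand. Whether reads were counted by strand is not given in the sources used here, so reads from the shared bases cannot be told apart. Gpr137 itself read 604 and 588 in control cultures against 599.7 and 660.4 under DcpS shRNA (log2 fold change 0.08, SE 0.08). Such a gene total does not show how reads of the shared bases were assigned, and their part in the fall of Bad was not tested.

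Of the other BH3-only genes, Pmaip1 and Bmf were higher in both DcpS shRNA libraries without passing, as were 24.4% of all tested genes, passing or not. Bmf was barely apart, at 220.4 and 228.7 in control cultures against 270.8 and 229.1 under DcpS shRNA. Bbc3, Bcl2l11 and Bid overlapped. Bbc3, which encodes PUMA, the main p53-induced killer in neurons, read 159.6 and 135 in control cultures against 193 and 148 under DcpS shRNA (log2 fold change 0.20, 95% interval −0.12 to 0.51). Leaving out 1 library moved Bbc3 between 0.0049 and 0.39. Pmaip1, which encodes NOXA, changed by 0.10 (95% interval −0.17 to 0.36), and Bmf, whose protein is held at the cytoskeleton, by 0.15 (95% interval −0.09 to 0.39). Bcl2l11, which encodes BIM, changed by 0.10 (95% interval −0.10 to 0.30). Bid, the link from death receptors to mitochondria, changed by −0.09 (95% interval −0.28 to 0.10), and shares 17.7% of its exon bases with Bcl2l13 on the opposite strand. The intervals of these 5 do not exclude changes of the size seen for Hrk in the direction each moved.

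Of the 3 effectors none was called by limma, and edgeR and DESeq2 called 0. By limma 2 were at an unadjusted p under 0.05, as were 18.7% of all tested genes. Bax, the effector that neurons rely on most, read 1114 and 1117 in control cultures against 1217 and 1247 under DcpS shRNA, so its groups were apart. Its log2 fold change of 0.14 (SE 0.06) had an adjusted p of 0.192 (limma, Benjamini-Hochberg). Exons of Gm45808 on the same strand share 12.2% of the exon bases of Bax, and how shared reads were counted is not given. Bok, a BCL2 relative of the endoplasmic reticulum, read 379 and 353 in control cultures against 299.8 and 335 under DcpS shRNA, lower in both. Its log2 fold change of −0.21 (SE 0.10) had an adjusted p of 0.266. Bak1, the other mitochondrial effector, changed by −0.10 (95% interval −0.35 to 0.14), and 18.2% and 7.35% of its exon bases lie under exons of 2 gene entries named Ggnbp1 on the opposite strand.

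The 4 anti-apoptotic genes and the 2 apoptosome genes gave no call (limma, 1 and 0 at an unadjusted p under 0.05; 0 by edgeR and by DESeq2). Mcl1, the short-lived guardian that progenitors depend on, read 3010.1 and 3040 in control cultures against 3355 and 3190.4 under DcpS shRNA, and its log2 fold change was 0.11 (95% interval 0.0019 to 0.22; adjusted p 0.259). Bcl2l1, which encodes BCL-XL, the chief guardian of young neurons, changed by 0.0021 (95% interval −0.12 to 0.12). Bcl2l2, which encodes BCL-W, changed by −0.00056 (95% interval −0.14 to 0.14) and Bcl2 by −0.02 (95% interval −0.18 to 0.15). Exons of Gm20521 on the same strand share 13.3% of the exon bases of Bcl2l2. Apaf1 and Casp9 each changed by −0.013, with intervals from −0.15 to 0.12 and from −0.16 to 0.13. For these genes a change as large as that of Bad lay outside every interval.

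Levels of different genes were set side by side per kilobase of annotated exon (GENCODE M21, all isoforms joined). Mcl1 was the most abundant member at 921 ± 46.4 normalised reads per kilobase (SD over 4 libraries), and Bax was next at 745 ± 43.5. The levels of Bax and Bcl2l2 carry the limit of the same-strand overlaps given above. Within the anti-apoptotic genes the order was Mcl1, Bcl2l1 (355 ± 9.77), Bcl2l2 (210.1 ± 9.04) and Bcl2 (57.5 ± 1.96), and no library of one gene reached the range of its neighbour. Among the effectors Bok (186 ± 18.1) and Bak1 (89.8 ± 6.50) lay below Bax in every library. Hrk was the most abundant BH3-only gene at 212 ± 22.1, and Bad followed at 152 ± 28.9. In the controls these 2 were close, at 187 and 201 per kilobase for Hrk and 178 and 177 for Bad. With DcpS shRNA they were 232 and 230.3 for Hrk and 129 and 126 for Bad, so the difference in level between the pair was larger in both DcpS shRNA libraries. The pair are the 2 BH3-only genes called in this fit, so the wider difference restates their calls and is no further result. Fas was the least abundant member at 7.39 ± 1.59.

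Summed per kilobase, the 7 BH3-only genes were at 712 and 706 in control cultures against 722 and 701 under DcpS shRNA, and these ranges overlap. Summed as normalised reads without regard to length, they were at 2891.4 and 2891.0 against 3065 and 3002, which do not overlap, so whether the groups overlap depends on the scale. Hrk, called higher, was the largest term of the sum in reads, and Bad, called lower, moved against it. The 4 anti-apoptotic genes summed per kilobase to 1482 and 1533 in control cultures against 1598 and 1561 under DcpS shRNA, higher in both. Of the 4, only Mcl1 was higher in both, at 881 and 889 against 982 and 933, and it was not called. The groups of Bcl2l1, Bcl2l2 and Bcl2 overlapped, so the sum does not describe the class. The ratio of Bax to Bcl2l1 per kilobase was 2.06 and 1.94 in control cultures against 2.16 and 2.25 under DcpS shRNA, higher in both, and that of Bad to Bcl2l1 was 0.518 and 0.484 against 0.359 and 0.359. The ratio of Hrk to Bcl2l1 moved the other way, from 0.545 and 0.550 to 0.647 and 0.655. The log2 fold change of Bcl2l1 was 0.0021, so the ratios of Bad and Hrk to it restate their calls. An exact permutation test of 2 libraries against 2 cannot give a two-sided p below 0.333. All the ratios here are therefore given as values with no test.

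**Figure D3:**
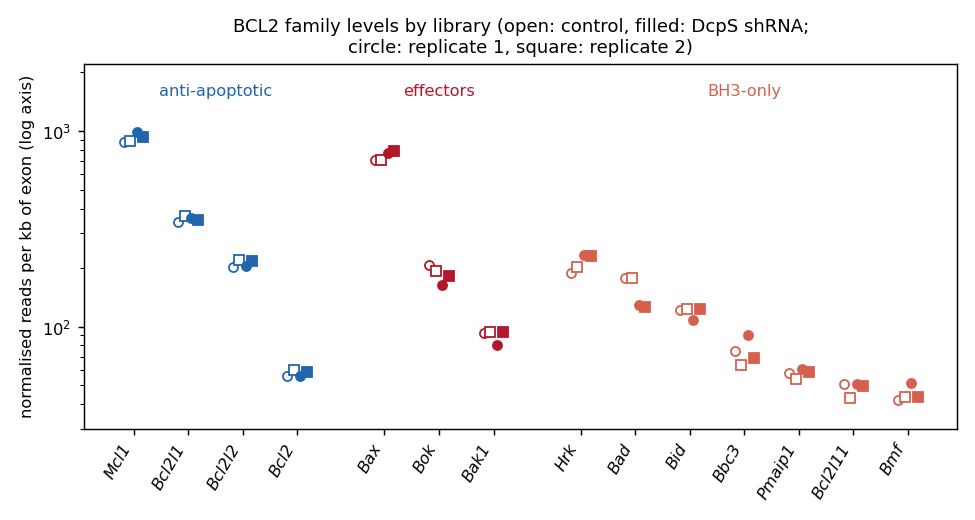
Normalised reads per kilobase of exon (log y axis) of the 14 BCL2 family members in each library, by class; open symbols are controls, filled symbols DcpS shRNA, circles replicate 1 and squares replicate 2. Hrk and Bad lie close in the controls, at 187 and 201 against 178 and 177, and apart with DcpS shRNA, at 232 and 230.3 against 129 and 126. Both were called in the same fit, so their moving apart restates those calls.

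In 3′ untranslated regions, the AU-rich word TATTTAT, which marks many short-lived transcripts, was counted in the longest annotated region of each gene. It was present in 17 of 36 members (47.2%) and in 31.3% of 13709 tested genes with such a region, and the members' regions were longer, with a median of 1580.5 bases against 1228. Among the 6 called members it was present in Btg2, Plk3 and Hrk and absent from Sesn1, Zmat3 and Bad. Plk3 held 3 copies in 332 bases and Hrk 2 in 5068, while Mcl1 and Pmaip1, which were not called, held 3 and 4. The words ACGTGCA and CACGTGC, which earlier results of these data had looked for because the Dcps transcript holds them, occurred 2 times in the 3′ region of Dcps, in 7.35% of the tested genes and in 1 of the 36 members, Bak1. None of the 6 called members held either word. With the words in 7.35% of tested genes, 6 genes are too few for anything to be read from this.

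Other genes of the pathway were examined from 5 lists with 96 genes, of which 87 were tested. Of these, 2 were higher and 1 lower (3.45% of those tested, beside 5.79% of all tested genes), and the median log2 fold change was −0.02. By edgeR 3 were called. By DESeq2 0 were called, with 6 at an unadjusted p under 0.05 and 9 given no adjusted p. The 9 genes left out by the filter were Trp53cor1, Gdf15, Trp63, Bik, Bcl2l10, Bcl2l14 and the 3 Bcl2a1 genes of the list, whose near-identical copies make their reads uncertain.

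Of 26 other p53-responsive genes tested, 1 was called lower, beside 3.65% of all tested genes. Gadd45a, a damage-response gene, had 70.3 ± 9.46 in the controls and 69.5 ± 1.91 with DcpS shRNA (SD, n = 2 per group).

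Of 17 regulators and relatives of p53 tested, 1 was called higher, beside 2.14% of all tested genes. The list had a median log2 fold change of −0.11, with 4 genes above 0 and 13 below. Ppp1r13b, which encodes ASPP1, a protein that steers p53 toward death genes, read 581.5 in both controls and 715 and 683 with DcpS shRNA (log2 fold change 0.26, SE 0.07; limma, Benjamini-Hochberg adjusted p 0.0384). The call ended without control 1 (0.127), control 2 (0.138) or DcpS shRNA 1 (0.0996) and under DESeq2 (0.277). Atm, the kinase that signals DNA breaks to p53, read 1019 and 1037 in control cultures against 1066 and 742 under DcpS shRNA. DcpS shRNA 2 alone was low, and without DcpS shRNA 1 the log2 fold change of −0.21 became −0.47 and passed (7.57e-07), whereas without DcpS shRNA 2 it was 0.05. The spread between the DcpS shRNA libraries was thus larger than the difference between groups for Atm.

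Caspases and their partners gave 0 calls among 22 by limma, by edgeR and by DESeq2. By limma 3 were at an unadjusted p under 0.05, beside 18.7% of all tested genes. Xiap, the caspase inhibitor, changed by −0.03 (95% interval −0.15 to 0.09). Casp8, the caspase of death receptors, had 15 to 31 reads in a library and a 95% interval from −1.21 to 0.09. Other BCL2-related genes gave 0 calls among 9 tested (limma, 1 at an unadjusted p under 0.05; 0 by edgeR and by DESeq2).

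Of 13 kinases and transcription factors known to act before BH3-only genes in neurons, 1 was called higher, beside 2.14% of all tested genes. Jun, the transcription factor through which JNK induces Hrk in neurons, read 991 and 930.2 in control cultures against 1243 and 1115 under DcpS shRNA. Both DcpS shRNA libraries were above the controls, with a log2 fold change of 0.29 (SE 0.07; limma, Benjamini-Hochberg adjusted p 0.0154). The call was lost when control 2 was left out (limma, Benjamini-Hochberg adjusted p 0.110) and under DESeq2 (0.0812). The list had a median log2 fold change of 0.09, with 9 genes above 0 and 4 below.

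**Figure D4:**
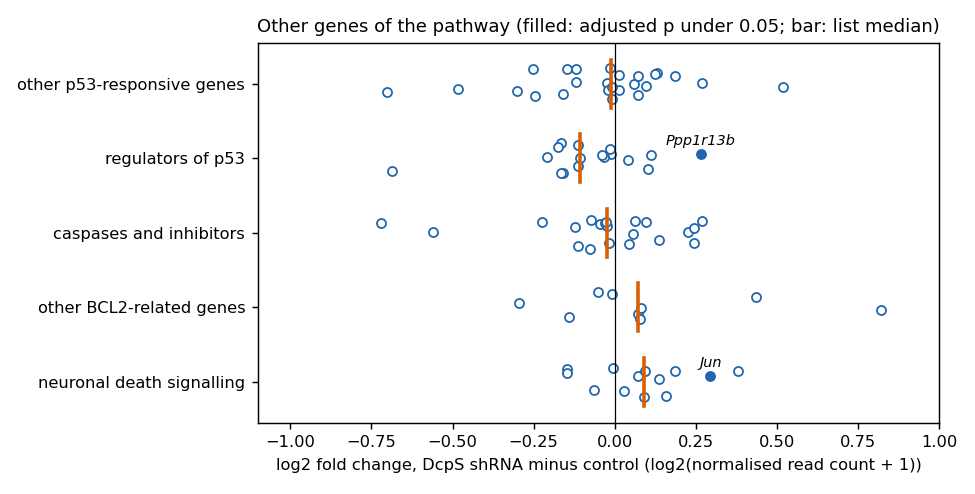
Log2 fold change (x axis, DcpS shRNA minus control) of all but 2 of the 87 tested genes of the 5 other pathway lists; filled points passed an adjusted p of 0.05 and vertical bars are medians of the whole lists. Of the genes drawn, Ppp1r13b (0.26) and Jun (0.29) passed, and the list medians lie between −0.11 and 0.09.

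**Figure D5:**
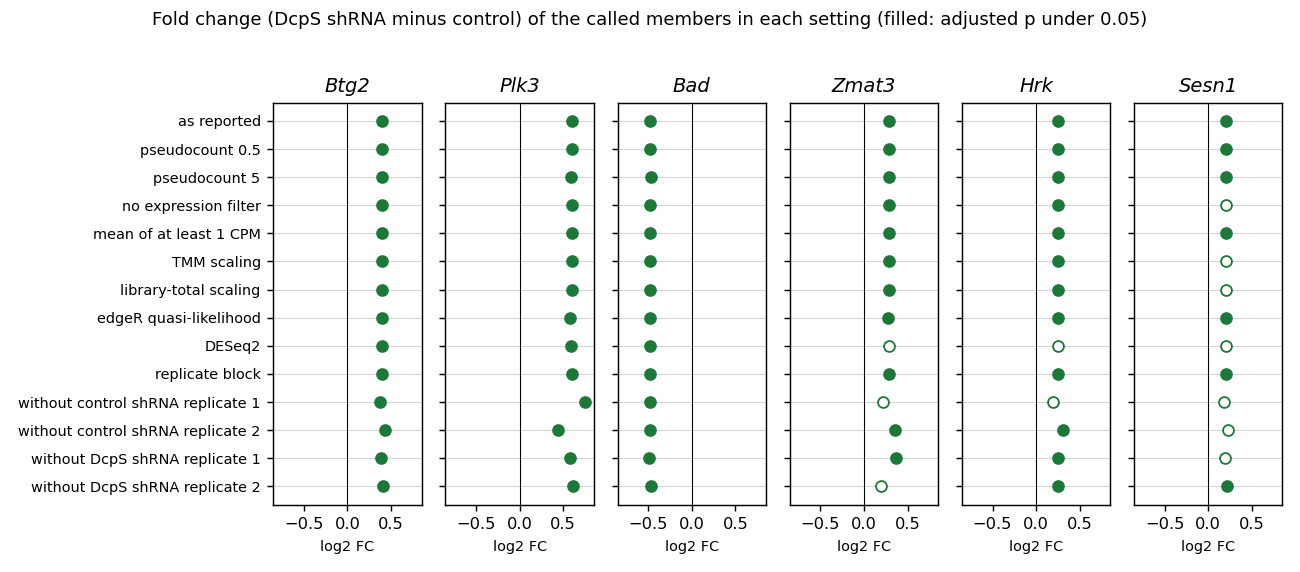
Log2 fold change (x axes, DcpS shRNA minus control) of the 6 called members as reported and in each of the 13 alternatives (y axis); filled points passed an adjusted p of 0.05. Btg2, Plk3 and Bad passed in every setting, and Hrk, Zmat3 and Sesn1 in 11, 10 and 6 of the 13 alternatives.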

How the data were processed

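RNA from 2 control and 2 DcpS shRNA cultures was sequenced. The submitters' processing notes name HISAT2 2.2.0, SAMtools 1.3.1, Picard, featureCounts, DESeq2 and GRCm38, without order or settings. The deposited values are a signal, gene read counts that the authors divided by 1 size factor per library: each is a whole multiple of what 1 read is worth in its column (100% of values, tolerance 0.001), and the implied factors equal median-of-ratios factors, which assume that most genes do not change. Libraries held 17754768 to 21793685 recovered reads, and a count of 0 allows 3 reads (counting error only).

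limma 3.58.1 (R 4.3.3) was fitted to log2(value + 1) of the 18110 genes kept by filterByExpr (minimum count 10) of edgeR 4.0.16 on recovered reads, with group as the only term, trended robust empirical Bayes, two-sided Benjamini-Hochberg adjusted p over all genes, threshold 0.05. The log2(value + 1) scale understates changes of low genes. With 2 residual degrees of freedom, p-values rest on the spread pooled across genes. The members, the gene lists and the tests were chosen with earlier results of these data known. Values per library are given for members that passed, for members whose groups do not overlap with an absolute log2 fold change of at least 0.2, and for others of interest. In pathway lists, called genes and Casp8, Xiap, Jun, Atm and Gadd45a are named; 2 genes of these lists are counted but not reported here. Neurod4, Eomes and Gpr137 were added after their values were seen. Alternatives were other pseudocounts, filters and scalings, edgeR's quasi-likelihood test, DESeq2 1.42.0, a replicate block and leaving out each library. Tested on reads simulated for DcpS shRNA against control over 17849 genes, 46% of genes made to change 1.3-fold were recovered, 60% of those changed 1.5-fold, 80% of the 2-fold and 96% of the 4-fold group, while 8.44% of 154 calls were false.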

Additional observations from a re-analysis of the deposited data

How the results depend on the processing

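Dcps kept its direction and its call in all 13 alternatives. The 6 calls among members became 3 with DESeq2 (2 higher) and 3 to 7 when 1 library was left out, with 2 to 5 higher and 1 to 2 lower; without control 1 the 3 calls were Btg2, Plk3 and Bad, and without DcpS shRNA 1 Ccng1 and Tnfrsf10b were added and Sesn1 lost. The 3 calls among other pathway genes became 0 with DESeq2 and 2 to 9 when 1 library was left out (6 without control 1, 9 without DcpS shRNA 1 and 5 without DcpS shRNA 2). Over all genes, the 1048 calls became 448 with DESeq2, 1626 with a replicate block and 1745 without DcpS shRNA 1. With the replicate number as a block, 7 members were called, Ccng1 in addition, and 7 other pathway genes. Libraries with the same number did not deviate together (r = 0.043 over genes), so the number is not taken to pair them. A fit without 1 library assumes that the lone sample of its group varies like the other group. Replicates differed less in the control group (chi-square per degree of freedom 2.14) than under DcpS shRNA (3.98), so calls gained without DcpS shRNA 1, such as Ccng1, Tnfrsf10b and Atm, take their spread from the quieter group.

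Of 467 values of members under alternatives, 424 kept direction and call, 12 lost a call, 3 gained one and 28 changed sign; none of the 6 called members changed sign. With edgeR, Bcl2l1 was −0.0023. Leaving out 1 library moved the log2 fold change from −0.15 to 0.027 for Trp53, −0.12 to 0.022 for Mdm2, −0.018 to 0.083 for Mdm4, −0.10 to 0.083 for Gtse1, −0.056 to 0.0015 for Plk2, −0.16 to 0.051 for Sesn2, −0.028 to 0.071 for Trp53inp1, −0.043 to 0.082 for Eda2r, −0.0045 to 0.073 for Aen, −0.052 to 0.050 for Ei24, −0.012 to 0.22 for Bcl2l11, −0.19 to 0.0093 for Bid, −0.21 to 0.0074 for Bak1, −0.062 to 0.026 for Bcl2, −0.045 to 0.049 for Bcl2l1, −0.057 to 0.056 for Bcl2l2, −0.061 to 0.034 for Apaf1, −0.066 to 0.040 for Casp9, −0.079 to 0.018 for Xiap, −0.47 to 0.052 for Atm and −0.15 to 0.13 for Gadd45a. The cause of these changes was not tested.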
